A study of Mus musculus with 4 samples.

Results

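The enzymes that add methyl or acetyl groups to histones, or take them off, were examined in CCR6+ group 3 innate lymphoid cells (ILC3) sorted out of mesenteric lymph nodes; the mice were naive and of strain C57BL/6. The genes were taken by symbol. A gene belonged to the set if its probe set carried a single platform symbol starting with Kdm, Kmt, Setd, Hdac, Sirt, Kat, Ezh or Suv and a digit, with Kdm5d left out. This gave 62 genes out of 19938 named genes on the array: 19 methyltransferase genes (Kmt, Setd, Ezh, Suv), 17 demethylase genes (Kdm), 8 acetyltransferase genes (Kat), 11 genes of zinc-dependent deacetylases (Hdac) and 7 sirtuin genes (Sirt). The rule itself reads symbols and no expression values, but it was set with earlier results of these data known. Where a gene had several probe sets, the level given is that of the probe set with the highest mean.

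ILC3 are lymphocytes without rearranged antigen receptors that act early at barrier tissues and in lymph nodes. Total RNA of 4 samples, numbered 1 to 4, was labelled with biotin and hybridised to 4 microarrays. The sort gate was CD127+ CD90.2+ CCR6+ ST2-, with no genotype, treatment or age given beyond the strain and the naive state. The samples form 1 group, so there is no comparison between conditions. Whether each sample stands for its own animal, pool or sort is not in the labels. SDs therefore describe how these 4 samples differed, and some of that may be technical. The p-values of limma test a mean against a background level, and their error is drawn from the same differences between samples.

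Histone tails carry marks that open or close chromatin. Methyltransferases place methyl groups on given lysines: methylation at H3K4 is known from active promoters and enhancers, that at H3K36 from transcribed gene bodies, and that at H3K27 and H3K9 from repressed chromatin. Demethylases remove these marks, acetyltransferases add acetyl groups that go with open chromatin, and deacetylases remove them. In lymphocytes this machinery is known for holding lineage programs in place while leaving cytokine genes ready for induction.

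Levels are log2 values made by RMA (robust multi-array average), and each is given as the mean ± SD over the 4 arrays (n = 4). Probe sets bind RNA with unequal strength, so a level is read against background and is not compared between genes as an amount of RNA. Background was the 1237 receptor genes of smell, pheromone, trace amine and bitter taste families. The detection p of a gene is the share of these genes at or above its mean, is one-sided, cannot go below 0.000808, and was adjusted over all 19938 genes (Benjamini-Hochberg). A gene counts as above background, or called, when this adjusted p is below 0.05. The lowest called mean was 6.37, while the median background gene lay at 4.25.

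The arrays were alike in their overall level, with medians over all probe sets from 5.99 to 6.03. The genes of the sort gate, Il7r, Thy1 and Ccr6, were called in 3 of 3 cases with means from 10.49 to 12.56, and 12 of 12 other ILC3 genes were called. Markers of other cells were present on the same arrays. B cell markers were called in 10 of 11 cases, and their mean was 8.61 on array 1, 7.76 on array 2, 8.77 on array 3 and 7.65 on array 4. T cell markers were called in 10 of 12 cases, with list means from 7.43 to 7.73, and NK and ILC1 markers in 8 of 12, with list means from 6.65 to 7.15. Smaller shares were called of the ILC2 markers (4 of 8) and the myeloid and dendritic cell markers (6 of 17). The same held for the markers of stroma, endothelium and epithelium (5 of 11) and the genes of cycling cells (4 of 11). These last shares lay near or below the 46.2% of all named genes that were called. By the unadjusted detection p they were 5 of 8, 11 of 17, 6 of 11 and 8 of 11 in the same order, against 57.2%. Whether the RNA of these markers came from other cells or from the ILC3 themselves was not tested. What other cells contributed to the level of any histone enzyme was not tested either. In such bulk RNA fewer cells of a type and less RNA per cell cannot be told apart. As a negative control, 16 genes of other organs were read, of which 5 were called. None of their values on any array passed 7.42, so a call below that level carries little weight. Above every organ gene on every array lay 9 of 11 B cell, 5 of 12 T cell and 3 of 12 NK and ILC1 markers. Of the ILC2 markers 1 of 8 did, Gata3, which is also among the 12 ILC3 genes. So did 2 of 17 myeloid and dendritic cell markers, 1 of 11 of stroma, endothelium and epithelium and 0 of 11 genes of cycling cells. Over all named genes the share was 25%.

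Most histone enzyme genes were above background. Of the 62 genes 55 were called, against 46.2% of all named genes, and 38 lay above every organ gene on every array, against 25% of all named genes. Their median level was 7.84, against 6.16 over all named genes. By limma's moderated one-sided test against the 95th percentile of background means, a level of 5.82, 58 were called, against 53.5%. Asking each of the 4 values to pass its own array's 95th background percentile also gave 58, against 54.4%, as did the unadjusted detection p, against 57.2%. The 7 genes not called were Setd4, Suv39h2, Kdm1b, Kdm4d, Hdac6, Hdac11 and Sirt4. No gene set was tested for enrichment, and these shares are descriptions.

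**Figure D1:**
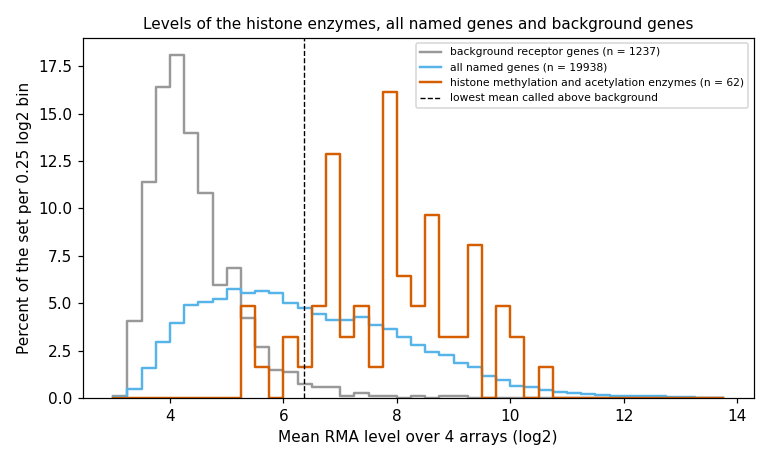
Distribution of mean log2 RMA levels (x axis) as the percent of each set per bin (y axis) for the 1237 background receptor genes, all 19938 named genes and the 62 histone methylation and acetylation enzymes; the dashed line is the lowest called mean, 6.37. The histone enzymes start at 5.40, and 55 of the 62 lie right of the line.

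The start regions of these genes were read to see what they share beside their names. RefSeq promoter windows of build GRCm38.p6 were on hand for 50 of the 62 genes, 70 windows in all since some genes have several starts, and the 250 bases before each start were searched on both strands. The windows were rich in the CpG dinucleotide: its median ratio of observed to expected count was 0.795, against 0.373 over all 32850 windows, 0.732 over windows of named genes above background and 0.354 over windows of named genes not above background. The 7 windows of the uncalled members had a median of 0.843, so these genes carried CpG-rich starts as the called members did. The GC box GGGCGG, a motif bound by Sp factors, lay in 58.6% of member windows, against 32.7% of all windows and 57.9% of windows of genes above background. The TATA box TATAAA lay in 2.86% of member windows, against 12.4% of all windows and 6.25% of windows of genes above background. In CpG content and GC boxes the members thus lay near the genes above background at large.

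The windows of Kmt2a, Kdm6a and Hdac2 are printed because they are the highest of the methyltransferases, demethylases and zinc-dependent deacetylases among genes with a single window, and those of Hdac11 and Sirt4 because these 2 genes had the lowest means of the set. They lie at chr9:44881290-44881539 (minus strand) for Kmt2a, chrX:18162325-18162574 (plus) for Kdm6a, chr10:36974294-36974543 (plus) for Hdac2, chr6:91156565-91156814 (plus) for Hdac11 and chr5:115484298-115484547 (minus) for Sirt4, each 250 bases long, read 5′ to 3′ in the direction of the gene and ending at the base before its start. Capitals mark each GC box on either strand.
Kmt2a: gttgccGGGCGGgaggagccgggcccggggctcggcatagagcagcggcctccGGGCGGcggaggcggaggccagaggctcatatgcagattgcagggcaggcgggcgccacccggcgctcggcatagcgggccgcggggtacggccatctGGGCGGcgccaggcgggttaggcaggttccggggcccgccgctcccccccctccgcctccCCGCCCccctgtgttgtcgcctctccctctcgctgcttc
Kdm6a: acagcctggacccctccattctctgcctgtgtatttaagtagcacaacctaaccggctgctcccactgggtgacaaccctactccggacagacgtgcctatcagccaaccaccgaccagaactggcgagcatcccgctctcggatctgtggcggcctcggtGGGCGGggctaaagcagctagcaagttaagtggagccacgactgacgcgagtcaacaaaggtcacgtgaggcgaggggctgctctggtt
Hdac2: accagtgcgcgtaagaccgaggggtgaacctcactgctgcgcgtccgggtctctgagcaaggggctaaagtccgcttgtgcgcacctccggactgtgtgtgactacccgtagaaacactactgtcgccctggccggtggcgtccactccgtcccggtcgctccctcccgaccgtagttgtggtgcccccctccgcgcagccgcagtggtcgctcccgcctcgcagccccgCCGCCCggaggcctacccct
Hdac11: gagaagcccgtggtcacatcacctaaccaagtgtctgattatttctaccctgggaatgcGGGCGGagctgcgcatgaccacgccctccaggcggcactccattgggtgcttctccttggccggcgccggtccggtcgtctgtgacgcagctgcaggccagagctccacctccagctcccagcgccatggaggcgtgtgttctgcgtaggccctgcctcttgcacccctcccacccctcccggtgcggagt
Sirt4: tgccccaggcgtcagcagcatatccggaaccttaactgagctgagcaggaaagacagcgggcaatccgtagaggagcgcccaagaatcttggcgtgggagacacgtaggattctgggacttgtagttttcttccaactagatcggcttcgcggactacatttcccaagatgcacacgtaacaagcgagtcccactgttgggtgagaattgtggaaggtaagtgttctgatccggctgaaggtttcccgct

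The Kmt2a window holds 4 GC boxes and 29 CpG sites, that of Kdm6a 1 and 15, and that of Hdac2 1 and 27. The window of Hdac11, a gene at 5.40 ± 0.04 and not called, holds 1 GC box and 17 CpG sites, and that of Sirt4, also not called, none and 14. A matching motif is a run of letters and not evidence that a factor binds there. Of the other motifs searched, CCAAT lay in 41.4% of member windows, against 33.9% of all windows and 34.7% of windows of genes above background. The ETS core CCGGAAG lay in 11.4%, against 6.91% and 14.4%, and its overlapping form ACTTCCGG in 4.29%, against 2.88% and 6.11%. For the E-box CACGTG the shares in the same order were 5.71%, 6.02% and 8.5%, for the nuclear receptor core GGTCA 35.7%, 35.2% and 33.1% and for the cAMP response element TGACGTCA 1.43%, 1.55% and 2.68%. For the NRF1 motif they were 1.43%, 0.782% and 1.78%. The YY1 and THAP11 motifs lay in 0 of 70 member windows, against 0.207% and 0.262% of all windows and 0.521% and 0.67% of windows of genes above background. The windows on hand for Hdac9 and Setd5 differed from those of most members. The 2 windows of Hdac9 had CpG ratios of 0 and 0.175, and the only window of Setd5 had 0. Kdm3a and Kdm4c each had 1 window at 0 and higher ratios elsewhere. Low ratios beside higher ones were also found for Hdac7 (0.222 and 0.317), Kmt5a (0.304), Kat8 (0.338) and Kat2b (0.352). The only window of Hdac8 was at 0.415.

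Methyltransferase genes were called in 17 of 19 cases, and 15 of them lay above every organ gene on every array. Over all named genes these shares were 46.2% and 25%. The 6 catalytic subunits of COMPASS-type complexes, which methylate H3K4, were called in 6 of 6 cases and lay above every organ gene. Kmt2a (MLL1), which maintains Hox gene expression and blood stem cells, was at 10.18, 10.03, 10.32 and 10.14 on arrays 1 to 4, with an adjusted detection p of 0.0108. Its values stayed within 0.28 log2 units of each other. Kmt2d and Kmt2c, which act at enhancers, were at 9.99 ± 0.20 and 9.38 ± 0.08. Kmt2b, Setd1a and Setd1b, which act largely at promoters, were at 7.78 ± 0.05, 7.99 ± 0.06 and 7.81 ± 0.19. Kmt2d was read by a second probe set at 8.71 ± 0.14 and Setd1b by a second at 7.54 ± 0.08, so within a gene the level depended on the probe set while the call did not.

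Kmt2e (MLL5), a SET domain gene with no established methyltransferase activity of its own, was among the steadiest genes. It was at 10.52, 10.49, 10.50 and 10.52, a mean of 10.51 ± 0.02, and its SD lay at the 1.10th percentile of the SDs of all genes above background. Setd5, a related SET domain gene whose own catalytic activity is disputed, was at 10.08 ± 0.10. Values of Setd5 on arrays 2 and 3 were the same to the printed digits, as can result from the median polish in RMA, so its SD may be too small.

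Both genes of the H3K27 methyltransferases were called. Ezh2, the catalytic subunit of Polycomb repressive complex 2 (PRC2) that is best known from dividing cells, was at 7.90, 8.08, 7.78 and 7.61. Its paralog Ezh1, known from resting cells, was at 8.38, 8.11, 8.48 and 8.48. The order of the arrays differed between them: array 2 was the highest for Ezh2 and the lowest for Ezh1. On the same arrays 4 of 11 genes of cycling cells were called, or 5 by limma's test, against 46.2% and 53.5% of all named genes. By the unadjusted detection p 8 of the 11 passed, against 57.2%, so their standing depends on the rule. Probe sets of different genes are not on a common scale, so these values do not say which of the 2 paralogs had more RNA.

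The H4K20 methyltransferases were called in 3 of 3 cases. Kmt5b was at 9.26 ± 0.17 and Kmt5a, the monomethylase linked to the cell cycle, at 7.59 ± 0.13. Kmt5c was close to the threshold, at 6.85, 6.80, 6.47 and 6.50, with an adjusted detection p of 0.0333, and lay below the highest organ gene. Suv39h2, an H3K9 trimethylase of pericentric heterochromatin, was at 5.97, 5.97, 6.02 and 6.13 and was not called, with an adjusted detection p of 0.0731. By limma's test it passed, with an adjusted p of 0.0054, so its call depends on where the bar is set.

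Setd2, the H3K36 trimethylase that travels with RNA polymerase, was called and differed between arrays. It was at 9.19, 8.64, 9.43 and 9.09, lowest on array 2 and highest on array 3. A second probe set of Setd2 gave 9.20, 8.68, 9.39 and 9.02, the same order of the highest and lowest arrays. Setd3, now known as an actin histidine methyltransferase, was at 8.57, 8.98, 9.30 and 8.60, with array 3 again the highest. Its second probe set was lower and ordered otherwise, at 6.82, 6.996, 6.82 and 6.65. Setd7, a monomethylase of H3K4 and of other proteins, was at 9.06, 8.21, 8.35 and 8.54, with array 1 above the other 3. Setd6, which methylates the NF-κB subunit RelA, was at 7.75 ± 0.09. Setd4 was at 6.37, 6.26, 6.38 and 6.27 and just missed the threshold, with an adjusted detection p of 0.0523; it was called without array 2 and by limma's test.

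Demethylase genes were called in 15 of 17 cases, against 46.2% of all named genes. Above every organ gene on every array lay 10 of them, against 25%. Of the 5 genes for H3K4 demethylases 4 were called. Kdm5a, a JmjC enzyme that removes trimethylation, was at 9.32 on arrays 1 to 3 and at 9.22 on array 4. Kdm5b and Kdm5c were at 7.94 ± 0.24 and 8.01 ± 0.18. Kdm1a (LSD1), the flavin-dependent demethylase of CoREST complexes, was at 8.57 ± 0.10. Its paralog Kdm1b (LSD2) was at 6.14, 6.15, 6.15 and 6.15 with an SD of 0.0038, and was not called, with an adjusted detection p of 0.0636. Its values on arrays 2, 3 and 4 were identical, so that SD is not a measure of error. The adjusted p of limma's moderated test, 0.000107, rests on it in part, since that test also draws on the variance of all genes.

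Both genes of H3K27 demethylases were called. Kdm6a (UTX), a partner of Kmt2c and Kmt2d in COMPASS-type complexes, was at 9.48, 9.08, 9.35 and 9.14 and lay above every organ gene. Kdm6b (JMJD3), which inflammatory signals can induce, was at 6.86, 7.13, 6.99 and 7.07, within the range of the organ genes.

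The H3K9 demethylases of the Kdm3 and Kdm4 families were called in 5 of 6 cases. Kdm3b was at 9.76, 9.67, 9.66 and 10.17, with array 4 above the others. Kdm3a, an enzyme induced by hypoxia, was at 8.17 ± 0.04 and Kdm4c at 8.52 ± 0.17. Kdm4a and Kdm4b were at 6.98 ± 0.24 and 6.75 ± 0.14, both called within the range of the organ genes. Kdm4b had 6.79, 6.78, 6.55 and 6.89 on the 4 arrays and an adjusted detection p of 0.0333. Kdm4d, known for its expression in testis, was at 5.47 ± 0.02 and was not called.

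The H3K36 demethylases Kdm2a and Kdm2b, which bind CpG islands through a CXXC zinc finger, were at 9.09 ± 0.17 and 6.91 ± 0.08 and were called. Kdm7a, which removes methyl groups from H3K9 and H3K27, was at 8.56 ± 0.10 by the probe set used. The second probe set of Kdm7a differed more between arrays, at 7.59, 8.84, 8.52 and 7.98, and did not follow the first. Kdm8 was at 6.70, 6.94, 6.58 and 6.77, with an adjusted detection p of 0.0333. It was therefore called, but below the highest organ gene.

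**Figure D2:**
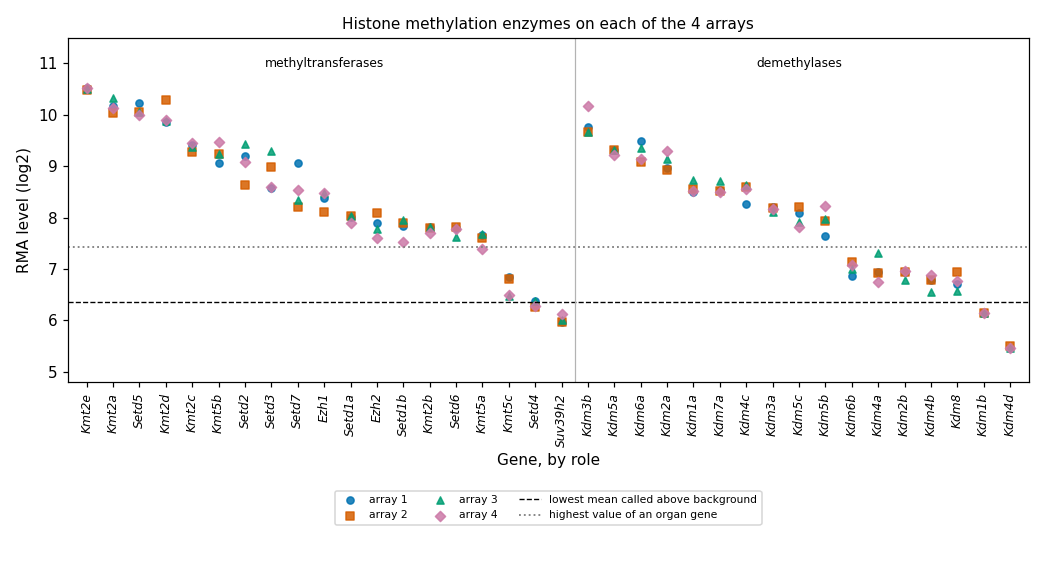
Log2 RMA level (y axis) of each methyltransferase and demethylase gene (x axis, by role and falling mean) on arrays 1 to 4, 1 symbol per array. The dashed line is the lowest called mean, 6.37, the dotted line the highest organ gene value, 7.42; Setd4, Suv39h2, Kdm1b and Kdm4d have means below the dashed line.

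Acetyltransferase genes were called in 8 of 8 cases, against 46.2% of all named genes. Above every organ gene on every array lay 5 of them, against 25%. Of the MYST family, Kat6a (MOZ) was at 8.90, 8.74, 8.77 and 8.85, close together on the 4 arrays. Kat8 (MOF), which acetylates H4K16, was at 8.58, 8.90, 8.74 and 8.06, lowest on array 4. Kat7 (HBO1) and Kat5 (TIP60) were at 8.32 ± 0.09 and 7.83 ± 0.16, and Kat6b, a paralog of Kat6a, at 7.50 ± 0.08. Of the GNAT family, Kat2a (GCN5) and Kat2b (PCAF), alternative subunits of SAGA and ATAC complexes, were at 8.27 ± 0.17 and 7.37 ± 0.14, and Kat14, an ATAC subunit, was at 7.25 ± 0.10. Kat6b, Kat2b and Kat14 did not clear every organ gene on every array.

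Zinc-dependent deacetylase genes were called in 9 of 11 cases, against 46.2% of all named genes. Above every organ gene on every array lay 6 of them, against 25%. Class I enzymes, the nuclear deacetylases of corepressor complexes, were called in 4 of 4 cases. Hdac1 was at 9.81, 10.13, 9.91 and 9.70 and Hdac2, with which it shares the Sin3, NuRD and CoREST complexes, at 9.45, 9.44, 9.43 and 9.58. The array that was lowest for Hdac1, array 4, was the highest for Hdac2. A second probe set of Hdac1 that lists the same RefSeq transcript was at 9.62 ± 0.21 and had its highest value on array 2 as well. Hdac3, the enzyme of the NCoR and SMRT complexes, was at 7.09, 6.85, 6.91 and 6.37, lowest on array 4, and Hdac8 was at 6.89 ± 0.19. Both were called within the range of the organ genes.

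Class IIa enzymes, which shuttle between nucleus and cytoplasm and bind MEF2 factors, were called in 4 of 4 cases and lay above every organ gene on every array. Hdac5 was at 8.10 ± 0.07, Hdac4 between 7.92 and 8.08 on the 4 arrays, Hdac7, known from thymocyte development, at 7.84 ± 0.09 and Hdac9 at 7.77 ± 0.15. The second probe set of Hdac4 differed more between arrays, at 6.59, 6.86, 7.61 and 7.67. Of class IIb, Hdac10 was called at 6.76 ± 0.11, while Hdac6, the tubulin deacetylase, was at 5.98, 5.63, 5.82 and 5.45 and was not, with an adjusted detection p of 0.0964. Hdac11, the single class IV enzyme, was not called either.

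Sirtuins, which consume NAD+, were called in 6 of 7 cases, against 46.2% of all named genes. Of the 7 genes 2, Sirt1 and Sirt2, lay above every organ gene on every array, near the share of 25% over all named genes. Sirt2, mostly cytoplasmic, was at 8.47, 8.82, 8.67 and 8.31. Sirt1, the nuclear enzyme that deacetylates histones and transcription factors including RORγt, was at 7.85, 7.62, 8.22 and 7.68, highest on array 3. Sirt7 was at 7.34 ± 0.09. Sirt6, which acts on chromatin at H3K9, was at 6.66, 6.37, 6.61 and 7.58, with array 4 above the other 3. Of the mitochondrial sirtuins, Sirt5, a desuccinylase, was at 6.64, 7.08, 6.36 and 7.24, and Sirt3, the main mitochondrial deacetylase, was at 6.67, 6.62, 6.34 and 6.60, the called member nearest to the threshold with an adjusted detection p of 0.0412. Sirt4 was at 5.18, 5.81, 5.37 and 5.26 and was not called.

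**Figure D3:**
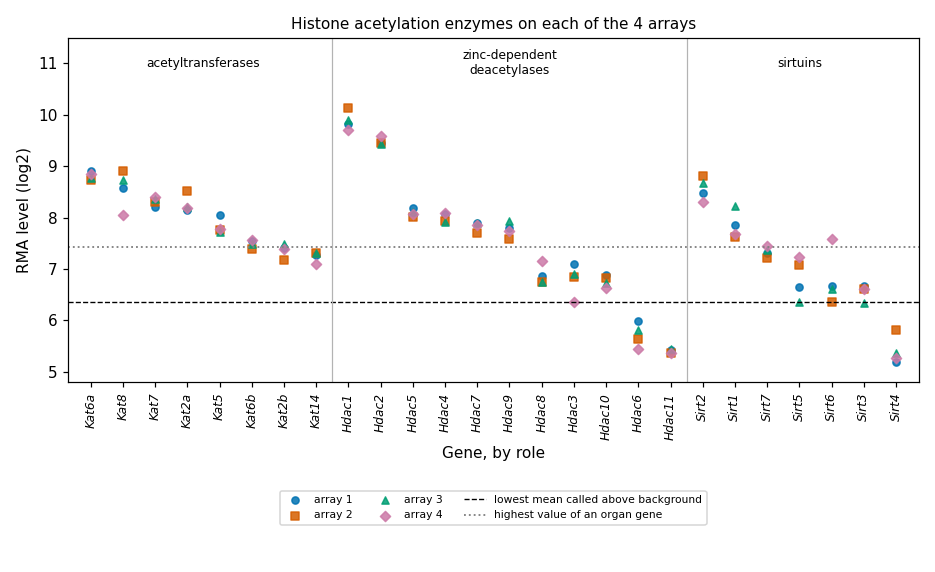
Log2 RMA level (y axis) of each acetyltransferase, zinc-dependent deacetylase and sirtuin gene (x axis, by role and falling mean) on arrays 1 to 4, 1 symbol per array, with the lowest called mean (6.37, dashed) and the highest organ gene value (7.42, dotted). Hdac6, Hdac11 and Sirt4 have means below the dashed line, and Sirt6 on array 4 stands above its other 3 values.

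Most members varied little between the 4 samples. The median SD of the 55 called members was 0.151 log2 units, a fold of 1.11, against 0.168 over all 9203 genes above background, and 24 of the 55 had an SD above that all-gene median. Identical values on at least 2 arrays, which may make an SD too small, occurred in 8 of the 55. That is 14.5%, against 10.9% of all genes above background. These 8 were Kdm5a, Kdm2b, Setd5, Kmt5b, Ezh1, Setd1a, Kmt2b and Hdac8. The SD of 1 member, Sirt6 at 0.532, passed the 95th percentile of all genes above background, 0.476. The median of the zinc-dependent deacetylases was 0.106, that of the acetyltransferases 0.121, that of the demethylases 0.152, that of the methyltransferases 0.168 and that of the sirtuins 0.247. With 6 to 17 called genes per role, and levels that differ between roles, these medians were not tested against each other. The 8 called members with the largest SD were Sirt6, Sirt5, Setd7, Kat8, Setd3, Setd2, Hdac3 and Sirt1, with differences between their highest and lowest arrays from 0.60 to 1.21 log2 units, or 1.52- to 2.32-fold. Sirt6, Sirt5 and Hdac3 had means of 6.81, 6.83 and 6.81, below the highest organ gene value of 7.42.

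**Figure D4:**
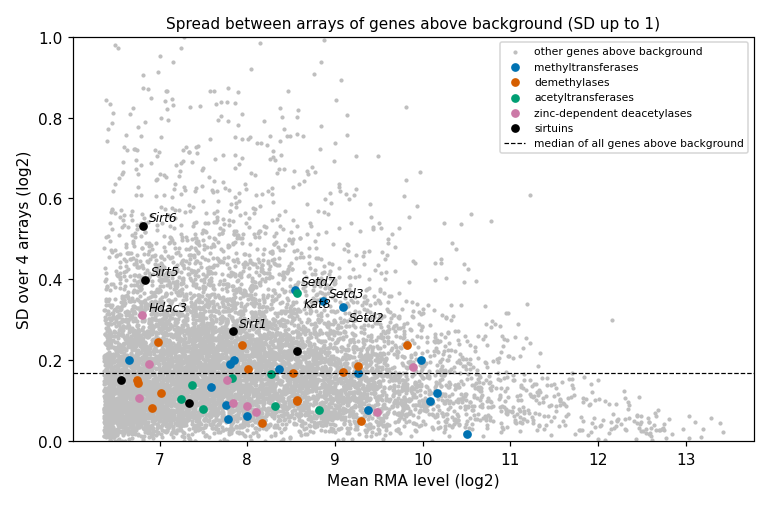
SD over the 4 arrays (y axis, log2 units, cut at 1) against the mean log2 RMA level (x axis) for genes above background, with the 55 called histone enzymes coloured by role and the 8 with the largest SD named. The dashed line is the median SD of all genes above background, 0.168; Sirt6, at 0.532, is the highest coloured point.

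These 8 genes did not share an order of the arrays. The highest array was 4 for Sirt6 and Sirt5, 1 for Setd7 and Hdac3, 2 for Kat8 and 3 for Setd3, Setd2 and Sirt1. B cell markers were highest on arrays 3 and 1 and lowest on arrays 4 and 2. Setd2, Hdac3 and Sirt1 were likewise higher on both of arrays 1 and 3 than on the other 2. This split was not particular to them, since Kmt2a, Kdm6a, Kdm4a and Hdac5 among the other called members had it too. Its share over all genes above background was not counted. From array 1 to array 4 the B cell marker mean went from 8.61 to 7.65, Setd2 from 9.19 to 9.09, Hdac3 from 7.09 to 6.37 and Sirt1 from 7.85 to 7.68. The part of B cells in these 3 genes was not tested. Sirt6 and Sirt5 were highest on array 4, where the B cell marker mean was lowest. Over the set as a whole the mean level moved little, at 7.90, 7.88, 7.90 and 7.87 on arrays 1 to 4. Among the called members the highest value fell on array 1 in 13, array 2 in 11, array 3 in 15 and array 4 in 16 genes, or 23.6%, 20%, 27.3% and 29.1%, against 26.4%, 25.9%, 25% and 22.6% of all genes above background.

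**Figure D5:**
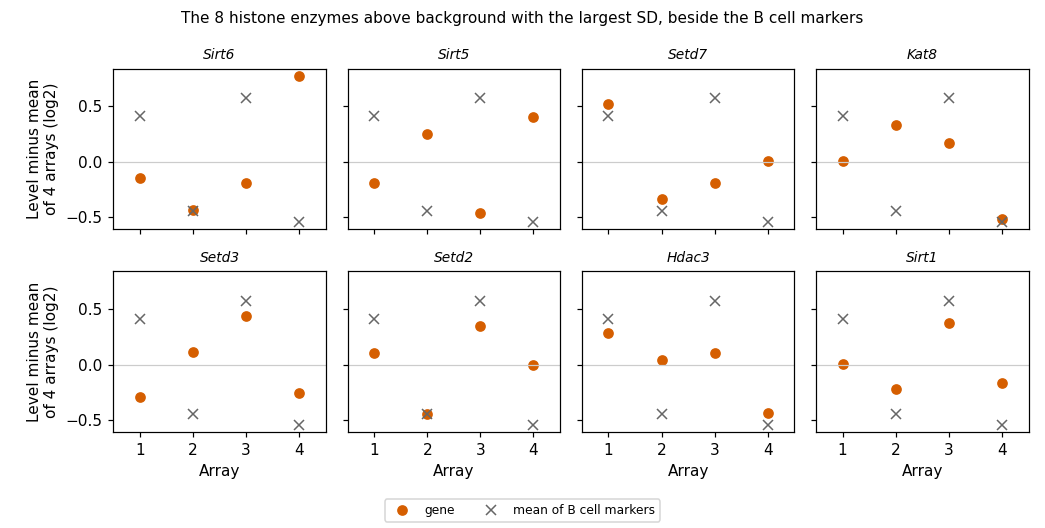
Log2 level minus the gene's own mean over the 4 arrays (y axis) on arrays 1 to 4 (x axis) for the 8 called histone enzymes with the largest SD (dots), with the mean of the 11 B cell markers treated the same way (crosses, the same in each panel). Setd2, Hdac3 and Sirt1 are higher on arrays 1 and 3 than on arrays 2 and 4, as the B cell markers are, and the other 5 genes are not.

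The partners of these enzymes were read from lists fixed by symbol. Of 16 PRC2 and PRC1 partners measured 15 were called, with a median level of 8.27. Rbbp7, a histone chaperone shared by PRC2 and deacetylase complexes, was at 9.55 ± 0.20 and Suz12, a core subunit of PRC2, at 9.44 ± 0.15. Phf19, a PRC2 accessory protein, was at 5.50 ± 0.05 and was not called. Eed, which binds the H3K27 mark and completes the PRC2 core with Ezh1 or Ezh2, was called at 8.41 ± 0.19. Of 10 COMPASS partners 10 were called, with a median of 7.90. Psip1, which tethers the Kmt2a complex to chromatin, was at 9.35 ± 0.08, Hcfc1 at 9.15 ± 0.17 and Wdr5, the scaffold shared by these complexes, at 6.80 ± 0.12.

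Partners of the deacetylases were called in 20 of 20 cases, with a median of 8.76. Mbd2 and Gatad2b, subunits of NuRD, were at 10.80 ± 0.20 and 10.19 ± 0.08, and Sin3b, the lowest of the list, was at 7.22 ± 0.14. Partners of the acetyltransferases were called in 23 of 24 cases, with a median of 7.77. Supt20, a SAGA subunit, was at 9.80 ± 0.10 and Msl2, which works with Kat8, at 9.72 ± 0.22. Tada2a, an adaptor of the ATAC complex, was at 5.94 ± 0.12 and was not called.

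Of 31 other histone methylation and acetylation enzymes whose symbols lie outside the pattern, 28 were called, with a median of 7.69. Crebbp, the acetyltransferase CBP, was at 10.40 ± 0.05 and Jmjd1c, of the Kdm3 family, at 10.22 ± 0.07. Mecom, known from blood stem cells, was at 4.85 ± 0.10 and was not called. Readers of modified histones were called in 17 of 19 cases, with a median of 8.25. Bptf, which binds trimethylated H3K4, was at 10.50 ± 0.15 and Atrx at 9.71 ± 0.09, while Brdt, a bromodomain gene known from testis, was at 4.43 ± 0.03 and was not called. Each of these shares is to be read against the 46.2% of all named genes that were called.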

How the data were processed

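The 4 samples were mapped to 1 group and numbered by their titles. The authors deposited 1 log2 value per probe set and array, computed by RMA per the submitters' processing notes; its version is not given in the sources used here. Without scanner files, other background corrections were not tried. Arrays give no read depth, and their number limits the precision. Of 35556 probe sets 21789 had a single symbol in GEO's platform annotation, 1621 had several and 12146 were not listed; 21698 were found in RefSeq's gene table (GRCm38.p6), used here for current symbols alone. A gene is represented by its probe set of highest mean; 7 of the 62 members had more than 1. Every column of the table belonged to a sample.

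Calculations used Python 3.11.15, pandas 2.3.3 and limma 3.58.1 in R 4.3.3, and were checked on simulated data. Values on each array are given for the 2 highest members per role, the 8 called members with the largest SD and the 4 nearest either side of the threshold, with further genes added after their values were seen. Of the partner lists the 2 highest and the lowest are named, besides Eed. Members, lists and rules were chosen with earlier results of these data known. Alternatives were limma's test, other thresholds and backgrounds, a filter on dim genes, renormalized arrays, other probe sets and leaving out each array. Members were also matched by current symbol, and arrays 2 and 4 were read alone. Promoter windows are RefSeq's.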

Additional observations from a re-analysis of the deposited data

Results flagged for a closer look

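For each of the 62 members and the 5 role means, the array farthest from the others was set against the range of the 4 values with Dixon's 95% criterion for 4 samples. Chance passes about 1 in 20 groups, and 9.38% of all genes above background passed. Of the 62 members 9 passed, 5 of them with identical values on at least 2 arrays, as can result from RMA's median polish, and this makes the criterion easy to pass. The 9 include Kdm1b and Kdm4d, which were not called. The 9.38% is over genes above background alone, so the sets differ. Kmt2d was at 10.29 on array 2, against 9.87 to 9.90 on the others, and Kat2a at 8.52 on array 2, against 8.16 to 8.21. The second probe set of Kmt2d did not share the high value, at 8.92, 8.60, 8.66 and 8.66 on arrays 1 to 4, with array 2 the lowest. Hdac2 was at 9.58 on array 4, against 9.43 to 9.45, and the uncalled Kdm4d at 5.50 on array 2, against 5.45 to 5.46. Those with identical values were low on 1 array: Kdm5a at 9.22, Kmt2b at 7.70 and Setd1a at 7.90 on array 4, Kdm2b at 6.79 on array 3 and Kdm1b at 6.14 on array 1. The mean of the acetyltransferases was 7.92 on array 4, against 8.01 to 8.02 on the others.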

How the results depend on the processing

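The count of 55 called members was 55 to 58 under 15 of 16 alternatives and 38 when a gene had to pass every organ gene on every array. Under that rule the acetyltransferases went from 8 to 5 and the sirtuins from 6 to 2, and all named genes from 46.2% to 25%. In all, 38 members were called under every alternative and 55 under every one but that rule, while Hdac6, Hdac11, Kdm4d and Sirt4 were called under none. Setd4, Kdm1b and Suv39h2 were called by limma's test, by the 95th percentile on every array and by the unadjusted p, and Setd4 also with dim genes left out and without array 2. Leaving out 1 array gave 55 to 56 called members and a median SD of 0.120 to 0.148, against 0.151 with 4 arrays. Arrays 2 and 4 alone, chosen after the data were seen for their low B cell markers, gave 55. Matching members by current symbol, counted among the 16, gave the same 62 genes and so could not change the count. Other probe sets changed the values of only those 7 members that had more than 1. No paired analysis was possible because the samples form a single group. Signal over background limits what can be read from genes below 7.42.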
